A study of Mus musculus with 12 samples.

Results

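Mitochondrial ribosomal protein genes were taken as the protein-coding genes of the deposited table whose symbol begins with Mrpl or Mrps followed by a digit. There were 78 of them among 55487 features, 49 named for the large subunit (Mrpl) and 29 for the small subunit (Mrps). No measured value entered that choice. All but 1, 77 genes (48 large and 29 small subunit), had a log2 CPM (CPM being reads divided by the library total) above 0 in at least 4 of 12 samples and could be compared with the 12364 genes that passed the same filter. The exception was Mrpl53, with 0 reads in each of the 12 libraries, which allows up to 0.0553 to 0.0933 CPM (3 reads) for counting error only. Other annotated genes cover 88.0% of its exon bases.

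The mitochondrial ribosome translates the mRNAs of the mitochondrial genome, which encode core subunits of the respiratory chain and of ATP synthase. Its rRNAs are transcribed inside the organelle, whereas its proteins are encoded in the nucleus, made in the cytosol and imported. The small subunit reads the mRNA and the large subunit joins the amino acids, and resting lymphocytes are known to enlarge their protein synthesis machinery when they are activated. The symbols do not always give the place of the protein: Mrps18a and Mrps30 sit in the large subunit of the resolved structure, and Mrps36 is now known as a component of the oxoglutarate dehydrogenase complex.

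The samples were natural killer (NK) cells, cytotoxic lymphocytes, of mouse strain B6.129S4-Ifngtm3.1Lky/J with the genotype mut/mut, in which a yellow fluorescent protein (YFP) reporter is tied to interferon gamma. All 12 samples carried the reporter and were primed with the cytokine IL-15, so there is neither an unmodified nor an unprimed control. There were 3 groups of 4 samples: cells left unstimulated, and cells given anti-NK1.1, an antibody to an activating receptor, for 6 h that were then YFP- or YFP+. No time is listed for the unstimulated samples. Each group has 1 sample per replicate label, and values of a group are given in the order f2 (marked as female), m2, m3, m4 (marked as male). The labels do not say whether samples came from separate mice or cultures, so a p-value measures only the spread between these samples, which may be technical. No age, purity or number of cells is used here.

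Library totals were 32.1 to 54.2 M reads. Features of rRNA and features that collect its reads took 27.4 to 35.3% of reads in unstimulated samples, 15.9 to 30.3% in YFP- and 13.7 to 29.8% in YFP+, and the YFP+ sample m3 had the highest share of its group. All 12 NK cell markers listed (Ncr1, Eomes, Prf1 and others) had a mean log2 CPM above 0 in each group. Their levels were not alike: Klrb1c went from a mean of 308 to 75.3 and 6.50 CPM in unstimulated, YFP- and YFP+ samples. In YFP+ against unstimulated samples, Ncr1, Klrd1, Klre1, Eomes and Gzma were lower too (limma adjusted p under 0.05). Klrk1, Tbx21 and Gzmb were higher, and Prf1, Nkg7 and Il2rb were not past that threshold. Summed T cell markers were at 126 to 175 CPM in unstimulated samples, 182 to 286 in YFP- and 243 to 385 in YFP+, an order of groups that the ribosomal protein genes share. Among them Cd28, Trac and Cd6 carried the rise, whereas Cd3g went from a mean of 47.9 to 32.5 and 20.7 CPM and Cd3d from 17.8 to 15.7 and 10.4 (YFP+ against unstimulated, limma adjusted p = 0.0059 and 0.0119). Cd3e stayed at a mean of 0.915 CPM or less and Cd4 at 0.0845 or less. B cell and myeloid lists summed to at most 4.19 CPM, the dendritic cell list to 6.32 and the list for other innate lymphoid cells, mostly Gata3, to 73.9. The part of other cells in the results was not tested. Values are shares of a library, and in bulk samples fewer cells of a type and less RNA per cell cannot be told apart.

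The stretches before the start sites are shown first. Their part in the changes was not tested. RefSeq promoter windows on GRCm38.p6, 250 bases before to 50 after a start, matched 69 of the 78 members (75 windows, a gene can have several). Within the bases before the start, 31 of the 69 had an exon of another GENCODE gene: Mrpl46 and Mrps11, 2 members, each have the other's exons there, Mrpl43 has those of Twnk (the mitochondrial DNA helicase) and Mrpl18 those of Tcp1 (a cytosolic chaperonin subunit). The 6 stretches below hold no annotated exon base and run 5′ to 3′ along the gene, up to 120 bases nearest to the start. They were chosen for the largest rise (Mrps6), for a motif in capitals before the start, and for the gap shared with Twnk (Mrpl43).
Mrps6, chr16:92058150-92058269, plus strand: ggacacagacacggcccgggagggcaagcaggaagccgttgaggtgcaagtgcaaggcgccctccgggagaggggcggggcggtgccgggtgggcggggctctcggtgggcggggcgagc
Mrpl16, chr19:11770271-11770390, plus strand: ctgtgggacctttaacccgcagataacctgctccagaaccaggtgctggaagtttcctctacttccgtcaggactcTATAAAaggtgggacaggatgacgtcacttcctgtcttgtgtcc
Mrpl20, chr4:155802758-155802877, plus strand: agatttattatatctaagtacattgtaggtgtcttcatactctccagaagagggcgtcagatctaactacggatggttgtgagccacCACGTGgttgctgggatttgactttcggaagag
Mrps22, chr9:98601680-98601799, minus strand: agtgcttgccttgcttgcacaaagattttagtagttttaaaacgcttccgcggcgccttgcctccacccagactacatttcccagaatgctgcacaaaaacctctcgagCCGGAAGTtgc
Mrpl9, chr3:94443198-94443317, plus strand: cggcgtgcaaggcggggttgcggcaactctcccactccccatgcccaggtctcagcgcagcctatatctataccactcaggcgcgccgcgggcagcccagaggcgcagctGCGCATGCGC
Mrpl43, chr19:45006443-45006557, minus strand: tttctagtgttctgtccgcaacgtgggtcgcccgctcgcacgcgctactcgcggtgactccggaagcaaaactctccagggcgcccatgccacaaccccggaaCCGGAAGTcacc

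The capitals mark the E-box CACGTG (bound by Myc and related factors), the NRF1 motif GCGCATGCG, the ETS motif CCGGAAGT (bound by Gabpa and related factors) and the TATA box TATAAA. The YY1 motif AAGATGGCG was searched too, on both strands as for the others, and no match overlapped one of another motif. Of the 75 windows, 12 (16%) held the ETS motif, against 8.85% of windows of genes past the filter and 3.89% of all 32851 windows. The YY1 motif was in 8 (10.7%), against 3.27% and 1.4%, and the NRF1 motif in 7 (9.33%), against 3.84% and 1.75%. The E-box was in 7 (9.33%), against 10.2% and 7.15%, and the TATA box in 5 (6.67%), against 7.05% and 13.6%. Windows of Mrpl2 overlap and hold the same E-box, which is counted once per window. A match is a string of letters and shows no binding. The motifs were picked with earlier results known, and these shares carry no test.

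Per kilobase of exon, the members spanned more than 2 orders of magnitude. Mrpl54 was highest in each group, at 148, 171 and 205 CPM per kb in unstimulated, YFP- and YFP+ samples, and Mrps30 was lowest, at 0.980, 0.985 and 1.16. The median member was at 17.0, 22.9 and 25.1 CPM per kb. Small subunit genes had a median of 11.2 CPM per kb in unstimulated samples, below the 20.9 of large subunit genes, and in YFP+ samples the medians were 25.9 and 24.9. The small subunit median fell on Mrps27 in unstimulated samples and on Mrps18b in YFP+ samples, so it does not follow 1 gene. Mean summed levels went from 1354 to 1946 CPM for small subunit genes and from 2895 to 3935 CPM for large subunit genes. Exon length here is the union over transcripts, which understates genes with long minor exons. At the fewest, a member past the filter held 194 reads in a library.

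As a share of all reads, both stimulated groups held more reads of these genes than the unstimulated group. Their summed level was 4250 ± 307 CPM (SD, n = 4; 3932 to 4519) in unstimulated samples, 5453 ± 387 (5062 to 5901) in YFP- and 5881 ± 180 (5728 to 6133) in YFP+. The unstimulated samples did not overlap with either stimulated group, and the YFP- and YFP+ ranges overlapped. The totals include rRNA-like reads, at 27.4 to 35.3% in unstimulated samples, 15.9 to 30.3% in YFP- and 13.7 to 29.8% in YFP+. With rRNA-like features left out of totals, the median log2 change of members was 0.18 instead of 0.36 in YFP- against unstimulated samples. For YFP+ against unstimulated it was 0.28 instead of 0.47. On those totals the summed levels of YFP- and unstimulated samples overlap. The YFP- sample m2 held 5207 CPM with 15.9% rRNA-like reads and then lies below the unstimulated m3, at 4507 CPM with 29.2%. Whether YFP+ and unstimulated samples stay apart there was not tested. The mean log2 CPM was highest in YFP+ for 51 of 77 members (66.2%, against 26.5% of all genes tested), in YFP- for 14 and in unstimulated samples for 12. It was lowest in unstimulated samples for 60 (77.9%, against 45.1%). The heat map of members by sample shows this order and its exceptions.

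**Figure D1:**
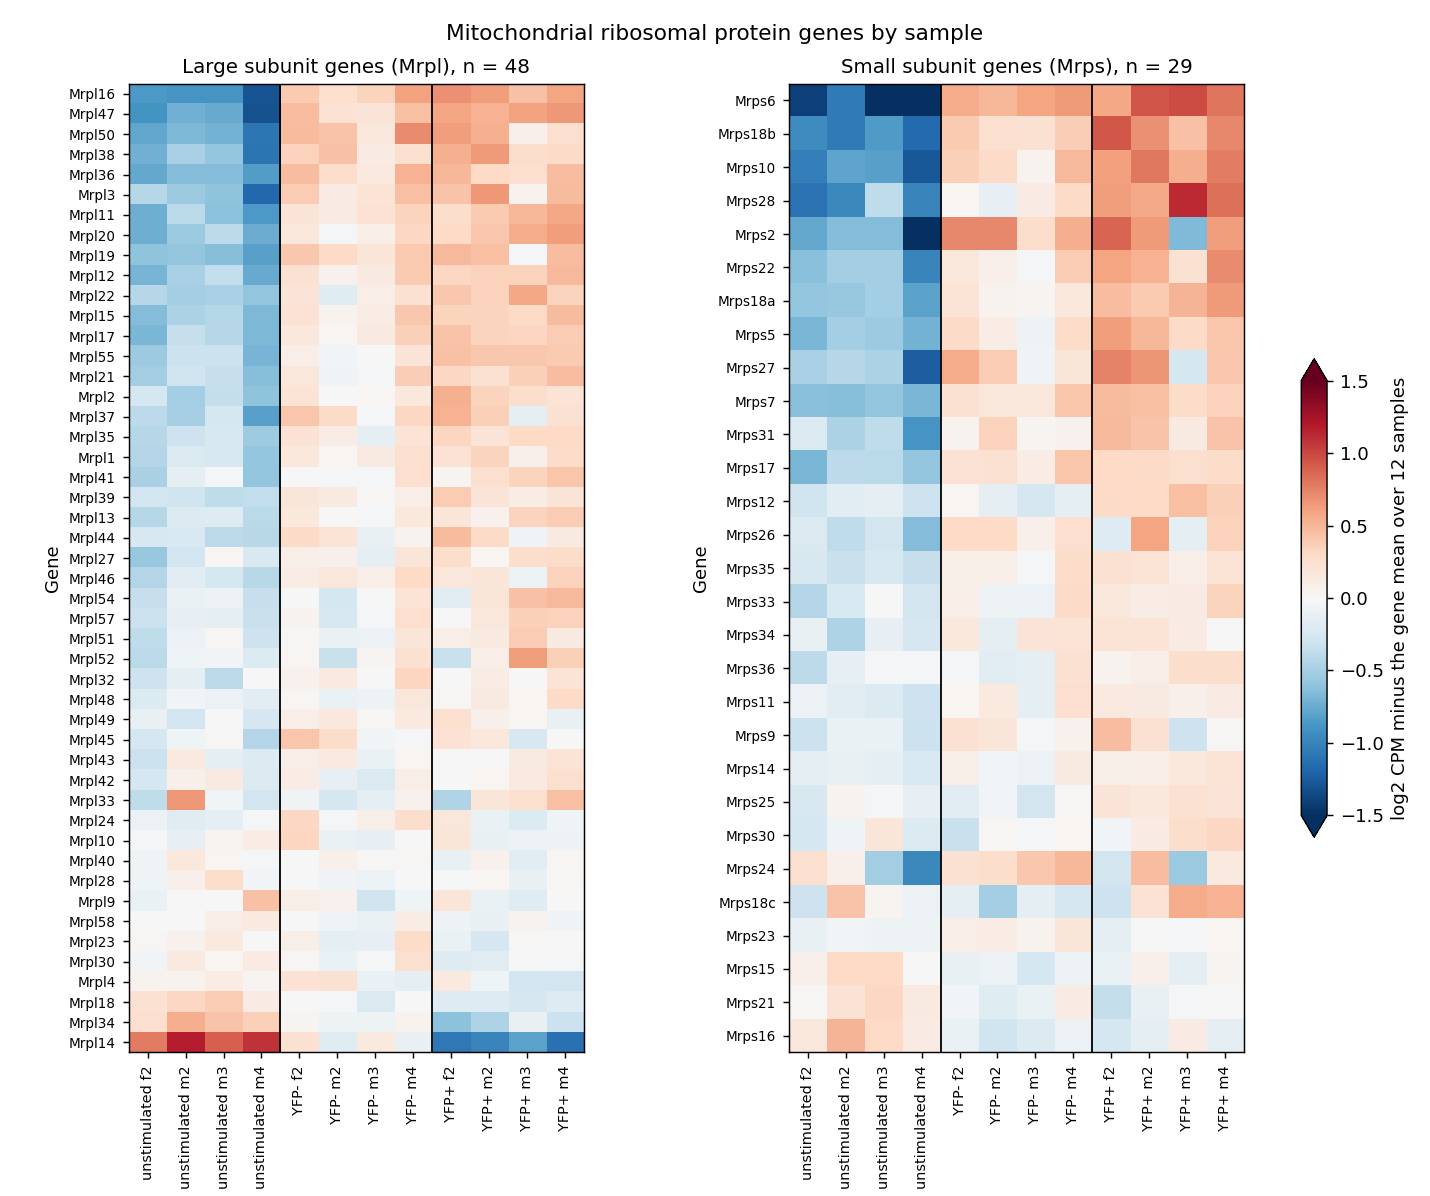
Each row is a gene and each column a sample; colour is the log2 CPM minus the gene's mean over the 12 samples, with large subunit genes on the left and small subunit genes on the right, sorted by the change from unstimulated to YFP+. Most rows are blue in the 4 unstimulated samples and red in the 8 stimulated ones, and Mrpl14 at the foot of the left panel runs the other way.

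Cells without reporter signal after the antibody are set beside unstimulated cells by YFP- against unstimulated samples. The labels name no YFP gate for unstimulated samples. With no time listed for them either, the antibody, the selection of cells by YFP and any difference in culture time cannot be told apart. The same holds for YFP+ against unstimulated samples. With limma on all 12 samples, calling a gene at a Benjamini-Hochberg adjusted p under 0.05 over 12364 genes, 40 of the 77 members rose and 5 fell. Over all genes tested 30.2% rose and 20.9% fell. The median log2 change of the members was 0.36, with quartiles of 0.10 and 0.75, and that of all genes was 0.14. All 4 YFP- samples lay above all 4 unstimulated samples for 42 members and below them for 5 (30.9% and 21.7% of all genes). Mrps6 rose most, Mrpl14 fell most in this comparison. The lower count rested on few samples: it was 3 without label f2, 1 without m2 and 3 without m3. Among scalings, quantile normalization gave 30 higher and 7 lower (26.8% and 27.6% of all genes), centring on the sample median 35 and 5 (26.5% and 26.6%), and trimmed means 36 and 6 (27.5% and 25.7%). Leaving rRNA-like features out of totals gave 35 and 7 (24.8% and 27.8%) and voom weights 36 and 6 (27.4% and 27%).

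Against the same unstimulated samples, YFP+ samples gave 48 higher and 5 lower of 77, against 27.5% higher and 33.3% lower of all genes tested (limma). The median log2 change was 0.47 for members and -0.03 for all genes. A log2 change above 1 was reached by 19 members, 10 of the 29 small subunit and 9 of the 48 large subunit genes. YFP+ samples lay wholly above unstimulated samples for 49 members and wholly below for 4 (24% and 30.8% of all genes). More genes fell than rose over the whole table, and more of these genes rose than fell. The lower count was 3 without label f2 and 3 without m2. The split depends in part on the library totals: with rRNA-like features left out of them, 38 members were higher and 12 lower (23.1% and 39.7% of all genes), and under trimmed-mean scaling they were 54 and 3 (31.8% and 31.9%). Quantile normalization gave 42 and 8 (32.8% and 30.7%), centring on the sample median 55 and 3 (33.3% and 30.6%) and voom weights 54 and 3 (31.4% and 31.8%).

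Sample by sample, the median change of members from the unstimulated mean exceeded that of all genes by 0.24 ± 0.09 in log2 (SD, n = 4; 0.13 to 0.34) in YFP- and by 0.54 ± 0.10 (0.39 to 0.63) in YFP+. Unstimulated samples were at 0.00 ± 0.05. The 3 groups did not overlap on this measure, which a shift of a whole library cannot move.

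What goes with reporter signal after the same stimulation is addressed by setting YFP+ beside YFP- samples. As deposited, 5 of 77 members were higher and 1 lower in limma, against 3.28% higher and 18.5% lower of all genes tested. Their median log2 change was 0.12, that of all genes -0.19, and 72 of the 77 lay above the median of all genes. YFP+ samples lay wholly above YFP- samples for 9 members and wholly below for 3 (4.31% and 17.8% of all genes). The count of members past the threshold turned on the scaling. Trimmed-mean scaling moved the median of all genes from -0.19 to 0.001, and 28 members were then higher and 1 lower (9.46% and 13.6% of all genes). Centring each sample on its median gave 37 and 1 (12.2% and 12.1%), quantile normalization 13 and 1 (9.41% and 11.6%) and voom weights 29 and 1 (10.4% and 13.3%). Leaving rRNA-like features out of totals gave 7 and 1 (3.55% and 21.7%). Relative to all genes the median member was higher by 0.30 as deposited, by 0.30 after centring and by 0.19 after quantile normalization. As deposited, 3 members were higher without label f2, 1 without m2, 3 without m3 and 1 without m4.

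**Figure D2:**
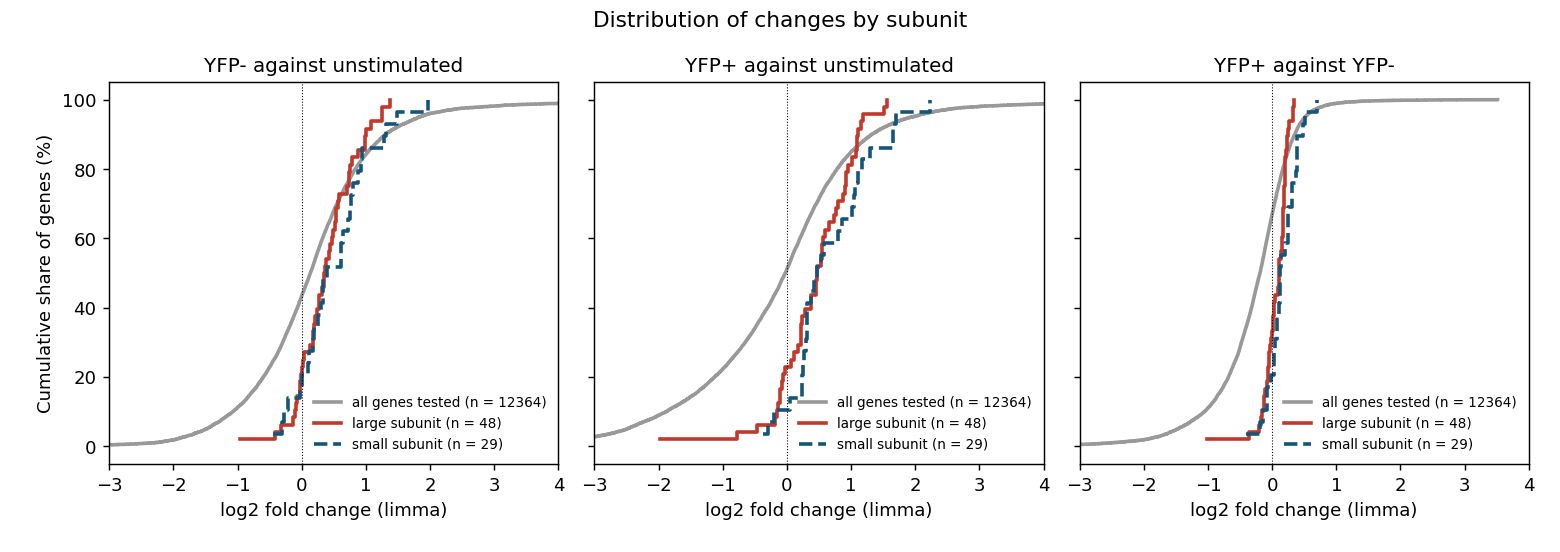
Cumulative share of genes (percent, y axis) at or below a log2 fold change from limma (x axis, cut at -3 and 4) for all 12364 genes, 48 large subunit and 29 small subunit genes, 1 panel per comparison. The lines of both subunits run close together and lie to the right of all genes over most of their range, with medians of 0.47 and 0.47 against -0.03 for YFP+ against unstimulated.

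Medians of large and small subunit genes lay close together. For YFP- against unstimulated, 25 of 48 large subunit genes rose and 3 fell, with a median of 0.36, and 15 of 29 small subunit genes rose and 2 fell, with a median of 0.39. For YFP+ against unstimulated the numbers were 28 and 3 (median 0.47) and 20 and 2 (median 0.47). For YFP+ against YFP-, 1 of 48 large subunit genes was higher and 1 lower (median 0.11). Of 29 small subunit genes, 4 were higher and 0 lower (median 0.13), against 3.28% higher and 18.5% lower of all genes. With subunits by structure, 2 of 50 large and 3 of 26 small subunit genes were higher. The difference of the medians, large minus small, was -0.03, 0.01 and -0.02 in log2 for the 3 comparisons. The same difference taken per sample, from the unstimulated mean of each gene, spread by an SD of 0.08 within groups. On that measure the group means were 0.00 (-0.04 to 0.05) in unstimulated samples, -0.09 (-0.21 to -0.01) in YFP- and -0.02 (-0.13 to 0.10) in YFP+. With Mrps18a and Mrps30 counted in the large subunit and Mrps36 left out, the difference of the medians of limma changes was -0.15 for YFP- against unstimulated. The SD above was taken with subunits by symbol, so it does not measure the spread of that value. No difference between the subunits was tested.

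Among small subunit proteins, Mrps6, a homologue of bacterial ribosomal protein S6, stood first in both comparisons with unstimulated cells. Its log2 CPM was 3.16, 3.50, 3.03 and 2.96 in unstimulated samples, 5.12, 5.07, 5.16 and 5.20 in YFP- and 5.15, 5.51, 5.55 and 5.37 in YFP+. All stimulated samples lay above all unstimulated ones, while YFP- and YFP+ overlapped. The log2 changes were 1.97 (SE 0.14, limma adjusted p = 2.43e-07), 3.93-fold, and 2.23 (SE 0.14, limma adjusted p = 2.64e-08), 4.69-fold. Mrps6 (ENSMUSG00000039680, chr16:92058270-92112227 on GRCm38, plus strand) shares 19.9% of its exon bases with genes on the same strand, chiefly Slc5a3, the myo-inositol transporter. Slc5a3 itself rose by 2.79 and 2.53 in log2 (limma adjusted p = 5.32e-06 and 5.30e-06) at a mean of 3.64 CPM. How reads were split between the overlapping genes is not given in the sources used here, and the part of Slc5a3 in the rise of Mrps6 was not tested.

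Mammals have 3 homologues of bacterial protein S18, of which 2 were called and 1 was not. Mrps18b, which binds the small subunit, was at 4.11, 4.0, 4.21 and 3.88 log2 CPM in unstimulated samples, 5.45, 5.30, 5.28 and 5.42 in YFP- and 5.98, 5.74, 5.49 and 5.77 in YFP+. Mrps18a, found in the large subunit, was at 6.00, 6.01, 6.07 and 5.78, then 6.78, 6.63, 6.62 and 6.73, then 7.04, 6.96, 7.08 and 7.22. For both genes the 3 groups stood in the order unstimulated, YFP-, YFP+ with no overlap between neighbours. Mrps18b rose by 1.31 in YFP- (SE 0.13, limma adjusted p = 3.34e-06) and by 1.70 in YFP+ (SE 0.13, limma adjusted p = 1.17e-07) against unstimulated samples. Mrps18a rose by 0.73 (SE 0.11, limma adjusted p = 8.76e-05) and by 1.11 (SE 0.11, limma adjusted p = 9.26e-07). Both were also higher in YFP+ than in YFP-, by 0.38 and 0.39 (limma adjusted p = 0.0486 and 0.0188), calls that were lost under 8 and 6 of 17 alternative settings. The homologue that takes the S18 place of the small subunit, Mrps18c, was at 4.83, 5.58, 5.19 and 5.06 in unstimulated samples, 5.0, 4.64, 5.0 and 4.89 in YFP- and 4.84, 5.36, 5.71 and 5.67 in YFP+. Its groups overlapped, with log2 changes of -0.28 and 0.23 from unstimulated samples (SE 0.20, limma adjusted p = 0.266 and 0.350). The difference in change between the homologues was not tested.

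Mrps28, a homologue of bacterial S1, rose at each step. Its log2 CPM was 3.34, 3.48, 4.07 and 3.45 in unstimulated samples, 4.48, 4.33, 4.57 and 4.73 in YFP- and 5.08, 5.02, 5.56 and 5.27 in YFP+, without overlap between groups. The log2 changes were 0.94 and 1.65 from unstimulated samples (SE 0.18, limma adjusted p = 0.000674 and 3.08e-06). From YFP- to YFP+ the change was 0.70 (SE 0.18, limma adjusted p = 0.0126), the largest rise of any member in that comparison, and 4 of 17 alternatives lost the call. Mrps12, a decoding centre protein whose bacterial homologue is a site of streptomycin resistance, rose at the second step. It was at 6.00, 6.15, 6.17 and 5.99, then 6.33, 6.16, 6.05 and 6.17, then 6.59, 6.61, 6.75 and 6.67. Its unstimulated and YFP- values overlapped and every YFP+ value was above both. The change from YFP- to YFP+ was 0.48 (SE 0.10, limma adjusted p = 0.00525) and kept its call under all 17 alternatives. The change from unstimulated to YFP- was 0.10 (SE 0.10, limma adjusted p = 0.440), with a sign that turned under 5 of 17 alternatives.

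Other small subunit proteins of the head, body and decoding region rose too. Mrps10, of the head, rose by 1.27 and 1.66 in YFP- and YFP+ (limma adjusted p = 7.11e-06 and 2.53e-07), that is 2.42-fold and 3.15-fold. Mrps7, an rRNA-binding protein of the head, rose by 0.88 and 1.02, Mrps5, near the decoding centre, by 0.76 and 1.07, and the pentatricopeptide repeat protein Mrps27 by 0.92 and 1.04 (limma adjusted p at most 0.0057). Mrps7 shares 11.87% of its exon bases with Gga3 and Mif4gd on the other strand. Mif4gd, at a mean of 48.3 CPM, changed by 0.815 and 0.066 (limma adjusted p = 0.000431 and 0.720), and Gga3 was not called. Their part in the rise of Mrps7 was not tested. Mrps22, shown above for its ETS motif, rose by 0.80 and 1.17. Mrps2 rose by 1.49 and 1.30 (limma adjusted p = 0.00126 and 0.00230) but with unlike samples: it was at 4.22, 4.35, 4.34 and 3.35 log2 CPM in unstimulated samples, 5.72, 5.71, 5.25 and 5.54 in YFP- and 5.87, 5.63, 4.33 and 5.62 in YFP+. The YFP+ sample m3 fell among the unstimulated values. Mrps36 and Mrps30, whose symbols differ from their place, were not called in either comparison, with changes from unstimulated samples of 0.11 and 0.31 for Mrps36 and 0.01 and 0.25 for Mrps30.

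**Figure D3:**
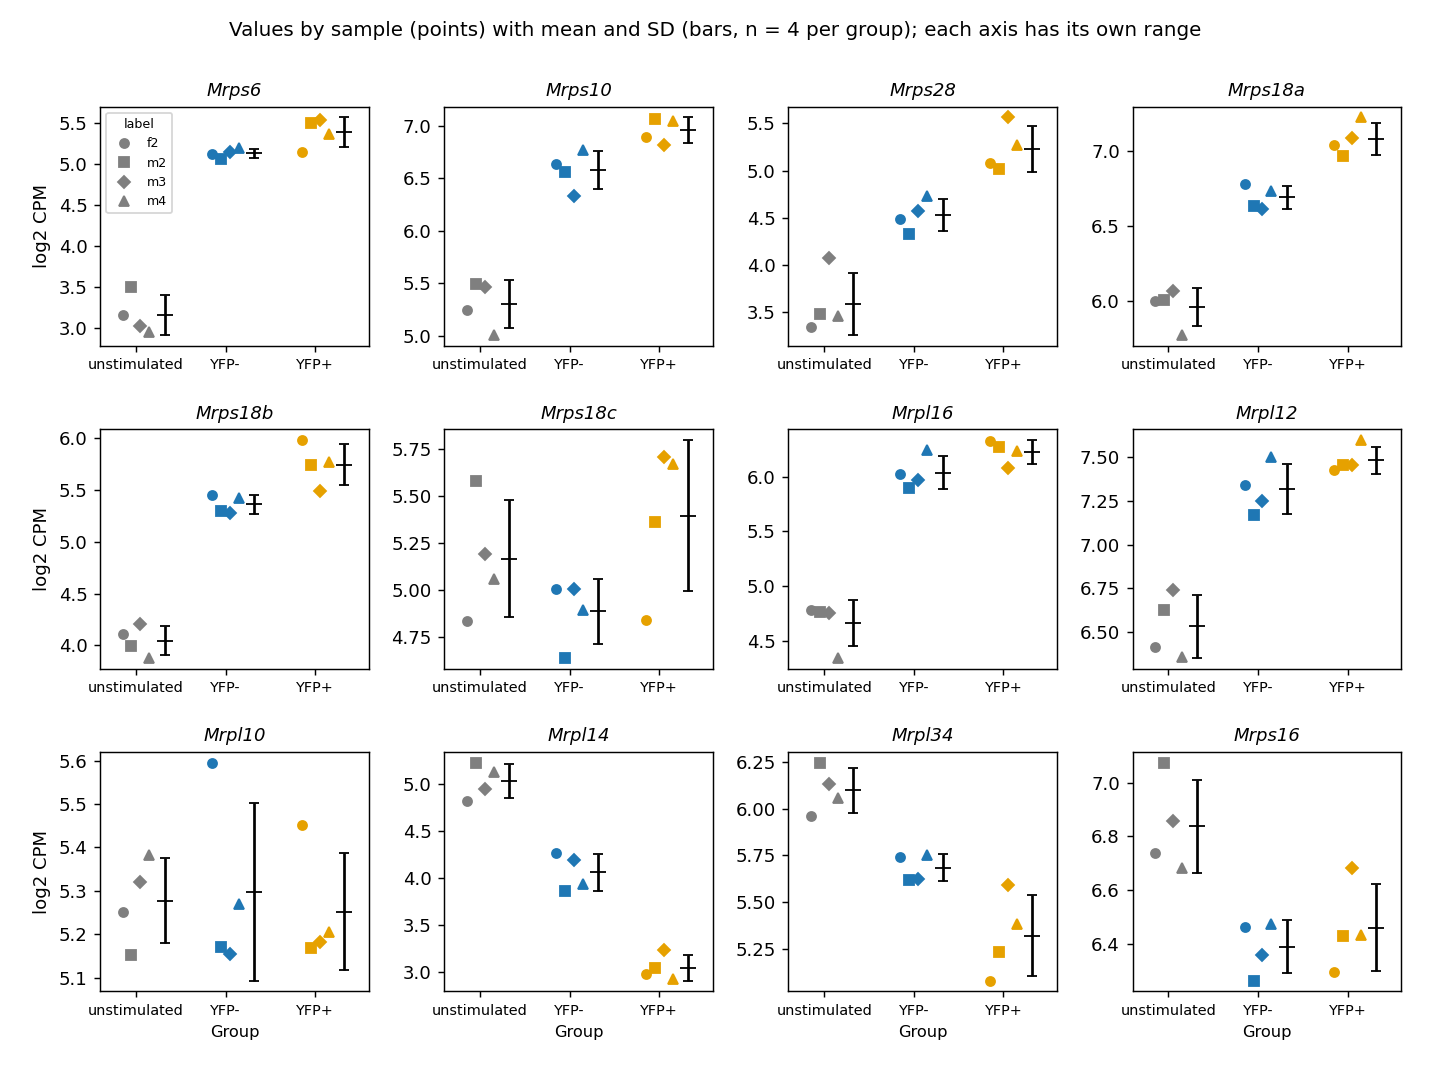
Log2 CPM (y axes, each with its own range) of 12 members in the 3 groups; points are samples with a shape per replicate label, and bars give the mean and SD (n = 4). Mrps6, Mrps10, Mrps28, Mrps18a, Mrps18b, Mrpl16 and Mrpl12 are lowest in unstimulated samples, Mrps18c and Mrpl10 overlap in all groups, and Mrpl14 and Mrpl34 step down.

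Among large subunit proteins, Mrpl16, which lies close to the bound tRNAs, rose most in both comparisons with unstimulated cells. Its log2 CPM was 4.78, 4.76, 4.75 and 4.34 in unstimulated samples, 6.03, 5.90, 5.97 and 6.25 in YFP- and 6.33, 6.27, 6.08 and 6.24 in YFP+. Stimulated samples were all above unstimulated ones, and the YFP- and YFP+ values overlapped. The log2 changes were 1.38 and 1.57 (SE 0.13, limma adjusted p = 2.59e-06 and 2.77e-07), 2.60-fold and 2.96-fold. The bacterial-type protein Mrpl36 rose by 1.08 and 1.11, and Mrpl20, shown for its E-box, by 0.74 and 1.07. Mrpl3 and Mrpl2, both rRNA-binding proteins of the catalytic core, rose by 0.98 and 1.09 and by 0.53 and 0.76. For Mrpl36, Mrpl20, Mrpl3 and Mrpl2, limma adjusted p was at most 0.00233.

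In the stalk of the large subunit, which recruits translation factors, some genes were called and Mrpl10 was not. Mrpl12, the stalk protein that has also been reported to bind the mitochondrial RNA polymerase, rose by 0.78 and 0.95 (SE 0.12, limma adjusted p = 0.000101 and 9.87e-06), from 93.2 to 160 and 179 CPM. Mrpl11, at the stalk base, rose by 0.87 and 1.08 (SE 0.12). Mrpl10, which anchors Mrpl12 to the ribosome, was at 5.25, 5.15, 5.32 and 5.38 log2 CPM in unstimulated samples, 5.59, 5.17, 5.16 and 5.27 in YFP- and 5.45, 5.17, 5.18 and 5.21 in YFP+. Its groups overlapped, with changes of 0.02 and -0.02 (SE 0.13, limma adjusted p = 0.905 and 0.884) whose sign turned with the scaling. Mrpl10 shares 14.05% of its exon bases with Gm11574, which was below the filter. Around the exit tunnel, Mrpl4 had changes of -0.01 and -0.19 and Mrpl45, which ties the ribosome to the inner membrane, of 0.35 and 0.22, none past the threshold. The rescue factor Mrpl58, a peptidyl-tRNA hydrolase built into the large subunit, had -0.08 and -0.11, and Mrpl33 had -0.09 and 0.11, also not past it. For Mrpl4, Mrpl33 and Mrpl58 the sign turned under at least 1 alternative.

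Mrpl55, a protein specific to the mitochondrial ribosome, was the 1 gene with an Mrpl symbol called as higher in YFP+ than in YFP-. Mrps18a, in the large subunit by structure, was called too. Mrpl55 was at 5.25, 5.47, 5.47 and 5.10 log2 CPM in unstimulated samples, 5.89, 5.75, 5.79 and 5.99 in YFP- and 6.23, 6.20, 6.19 and 6.19 in YFP+. No group overlapped another, and the change of 0.35 (SE 0.11, limma adjusted p = 0.0455) lost its call under 10 of 17 alternatives.

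Mrpl14 went the other way from most members. It encodes a protein at the interface of the subunits and the site that the silencing factor Malsu1 binds. Its log2 CPM was 4.83, 5.22, 4.94 and 5.13 in unstimulated samples, 4.27, 3.86, 4.19 and 3.93 in YFP- and 2.98, 3.05, 3.24 and 2.93 in YFP+. The groups stood apart at both steps, with means of 32.8, 16.8 and 8.30 CPM. The log2 change was -0.96 and -1.98 from unstimulated to YFP- and YFP+ samples and -1.01 from YFP- to YFP+ (SE 0.14; limma adjusted p = 9.61e-05, 7.25e-08 and 0.000270), and each call held under all 17 alternatives. That is 1.95-fold, 3.94-fold and 2.02-fold lower. Mrpl14 (ENSMUSG00000023939, chr17:45686322-45698495 on GRCm38, plus strand) shares 11.2% of its exon bases with Tmem63b on the other strand, which had a mean of 0.410 CPM. The window before its start lies in Tmem63b exons, so no stretch is printed for it.

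The other falls were smaller. Mrpl34 was at 5.96, 6.24, 6.13 and 6.06 log2 CPM in unstimulated samples, 5.74, 5.62, 5.62 and 5.75 in YFP- and 5.08, 5.23, 5.59 and 5.38 in YFP+, with changes of -0.41 and -0.78 (SE 0.13, limma adjusted p = 0.0141 and 0.000115). Mrpl18, of the central protuberance, fell by 0.32 and 0.47 (limma adjusted p = 0.0184 and 0.00108), while Tcp1, with which it shares 10.1% of its exon bases, rose by 1.20 and 0.98. Both Mrpl34 and Mrpl18 lay wholly below the unstimulated samples in each stimulated group, though their YFP- calls were lost under 3 and 4 of 17 alternatives. The small subunit gene Mrps16 fell by 0.45 and 0.38 (limma adjusted p = 0.00764 and 0.0158), Mrps15 by 0.31 in YFP- (limma adjusted p = 0.0335) and Mrps21 by 0.29 in YFP+ (limma adjusted p = 0.0494). The YFP+ call of Mrps16 was lost under 6 of 17 alternatives, that of Mrps21 under 11, and the YFP- call of Mrps15 under 6.

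Proteins of the mitochondrial ribosome that carry other symbols formed a list of 5. Dap3, the GTP-binding protein of the small subunit, fell in all 3 comparisons, by 0.44 and 0.93 from unstimulated to YFP- and YFP+ samples and by 0.49 from YFP- to YFP+ (limma adjusted p = 0.0263, 0.000128 and 0.0362). Its log2 CPM was 5.43, 5.45, 5.48 and 5.20 in unstimulated samples, 5.16, 5.02, 4.80 and 4.80 in YFP- and 4.68, 4.71, 4.16 and 4.28 in YFP+, with no overlap between neighbours, and 12 of 17 alternatives lost the call between YFP+ and YFP- and 5 that between YFP- and unstimulated samples. Ptcd3, a pentatricopeptide repeat protein of the small subunit, rose by 1.70 and 1.60 in YFP- and YFP+ (limma adjusted p = 0.000754 and 0.000794). Gadd45gip1 rose in YFP+ by 0.49 (limma adjusted p = 0.0204), a call lost under 5 of 17 alternatives, and Aurkaip1 and Chchd1 were not called.

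Factors that assemble the ribosome and other genes of mitochondrial translation were taken as further lists. Their counts stand beside 30.2% higher and 20.9% lower of all genes tested in YFP- against unstimulated, and 27.5% and 33.3% in YFP+. Of 28 assembly factors, all tested, 14 rose and 0 fell in YFP- against unstimulated, and 17 rose and 1 fell in YFP+ (median log2 change 0.50 and 0.59, against 0.14 and -0.03 for all genes). The RNA-binding protein Fastkd2 rose by 2.98 and 2.47, the rRNA methyltransferase Nsun4 by 2.02 and 1.82, and the rRNA methyltransferase Mrm3 by 1.79 and 1.87 (limma adjusted p at most 0.000393). The YFP+ values of Fastkd2, 6.05, 5.81, 3.80 and 4.20 log2 CPM, were far more spread than its YFP- values of 5.48, 5.50, 5.22 and 5.68. Rbfa, which acts on the small subunit rRNA, fell in YFP+ by 0.74 against unstimulated and by 0.89 against YFP- samples (limma adjusted p = 0.0177 and 0.0186), calls lost under 4 and 5 of 17 alternatives.

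Beside the same shares of all genes, of 14 translation factors tested (15 listed), 6 and 7 rose in YFP- and YFP+ and 0 fell, led by the elongation factor Gfm1 at 1.38 and 1.61. Of 19 mitochondrial tRNA synthetases and amidotransferase subunits, leaving out Lars2 whose locus collects rRNA reads, 11 rose and 0 fell in YFP-, and 8 rose and 3 fell in YFP+. Nars2 and Qrsl1 were among the largest rises in both, at 1.78 and 1.62 and at 1.57 and 1.63, while Vars2 fell by 1.12 in YFP+. The other falls, Pars2 and Cars2, lost their call under 9 and 11 of 17 alternatives, and the YFP+ rise of Tars2 under 8. Of 9 genes of mitochondrial DNA transcription and replication, 5 rose and 2 fell in YFP-, and 6 rose and 0 fell in YFP+, led by the elongation factor Tefm at 1.68 and 2.16. The falls in YFP-, Polg and Mterf1a, were lost under 3 and 7 of 17 alternatives. Of 8 regulators of mitochondrial biogenesis tested (9 listed), 3 rose and 1 fell in YFP-, and 3 rose and 2 fell in YFP+, shares of risen genes near those of all genes. Myc rose by 2.28 and 1.51, Pprc1, a coactivator related to PGC-1, by 1.52 and 1.55, and C1qbp, a matrix protein needed for mitochondrial translation, by 1.74 and 1.98, whereas Yy1 fell by 0.45 and 0.48. Both Yy1 calls were lost under 5 of 17 alternatives, and that of Ppargc1b, the other fall in YFP+, under 10. Limma adjusted p was at most 0.00184 for Gfm1, Nars2, Qrsl1, Vars2, Tefm, Myc, Pprc1 and C1qbp and at most 0.0265 for Yy1.

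Reads of the rRNAs of the same ribosome did not rise. How far such reads follow the amount of mitochondrial rRNA or mRNA after SMARTer Ultra Low amplification was not tested. The 12S rRNA of the small subunit, mt-Rnr1, was at 7.81, 8.88, 8.69 and 8.46 log2 CPM in unstimulated samples, 8.27, 8.12, 7.97 and 8.27 in YFP- and 6.74, 7.07, 7.64 and 6.44 in YFP+. The 16S rRNA of the large subunit, mt-Rnr2, was at 11.41, 12.18, 11.88 and 11.90, then 11.69, 11.60, 11.52 and 11.82, then 10.21, 10.54, 11.07 and 10.45. For both, unstimulated and YFP- samples overlapped and all YFP+ samples lay below every other sample. Against unstimulated samples they changed by -1.49 and -1.27 in YFP+ (SE 0.25 and 0.18, limma adjusted p = 0.000162 and 3.55e-05), and against YFP- samples by -1.18 and -1.09 (limma adjusted p = 0.00436 and 0.00087), where 2 of 17 alternatives lost the mt-Rnr1 call. In YFP- against unstimulated samples the changes of -0.30 and -0.19 were not past the threshold (limma adjusted p = 0.329 and 0.404).

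Of 13 mitochondrial mRNAs, 11 passed the filter. In YFP- samples 1 was higher than in unstimulated samples and 0 lower, in YFP+ samples 10 were lower than in unstimulated samples and 9 lower than in YFP-, and 0 were higher in either. Of all genes tested, 33.3% and 18.5% were lower in those 2 comparisons. The mRNA higher in YFP- was mt-Nd5, by 0.69, a call lost under 8 of 17 alternatives. The cytochrome oxidase mRNA mt-Co1 fell by 1.38 and 1.47 in YFP+ against unstimulated and YFP- samples (limma adjusted p = 2.35e-05 and 0.000128). By group mean, YFP+ had the highest summed level of ribosomal protein mRNAs, in a range that overlapped YFP-. Its samples had the lowest log2 CPM of both mitochondrial rRNAs.

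**Figure D4:**
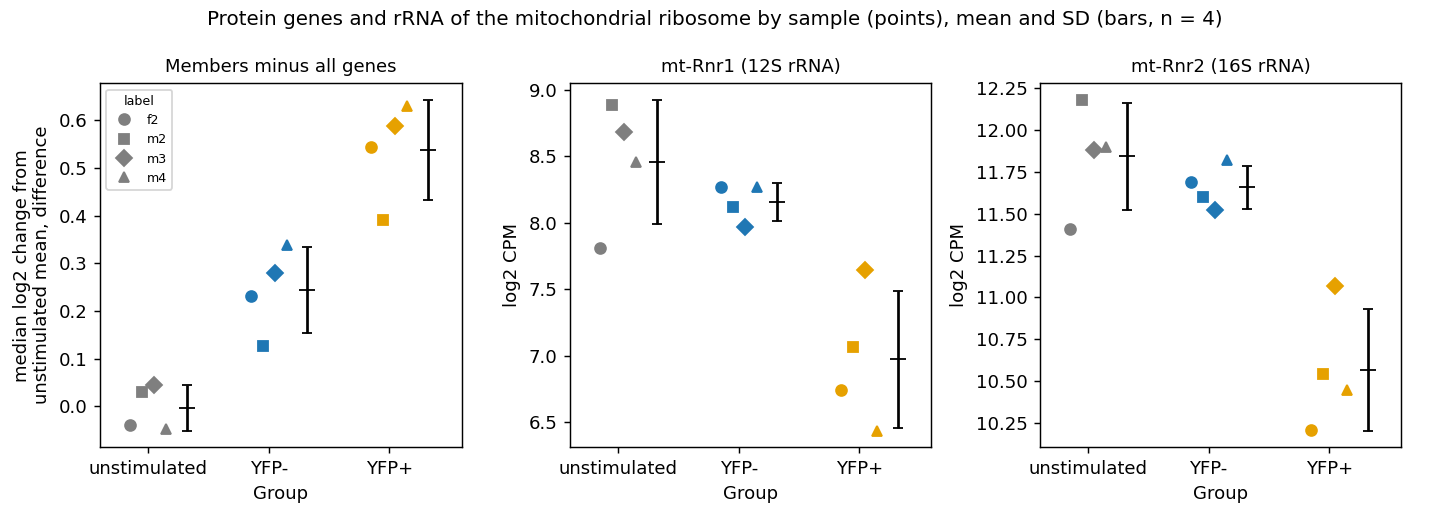
Left, the median log2 change of the 77 members from the unstimulated mean minus that of all genes; middle and right, log2 CPM of mt-Rnr1 and mt-Rnr2; points are samples and bars the mean and SD (n = 4). The left panel steps up from 0.00 to 0.24 and 0.54, while YFP+ samples are lowest for both rRNAs.

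Sharing of exon bases limits single genes more than the whole. Of the 78 members, 33 shared exon bases with another gene, 8 on the same strand and 28 on the other, and 18 shared more than 10%. The library kit does not mark strand, so reads from overlapping genes on both strands cannot be told apart. Over the 60 members past the filter that share at most 10%, 31 rose and 3 fell in YFP- against unstimulated, 38 rose and 3 fell in YFP+ against unstimulated, and 4 were higher and 0 lower in YFP+ against YFP-. The shares of all genes higher and lower are 30.2% and 20.9%, 27.5% and 33.3%, and 3.28% and 18.5% for these comparisons.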

How the data were processed

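RNA of 12 samples was read as paired 150 base reads after SMARTer Ultra Low amplification of 10 ng RNA, per the labels' protocols. The submitters' processing notes name bcl2fastq, STAR 2.7.9a, Subread and featureCounts 2.0.3 on GRCm38, with no roles given. The deposited table holds the authors' log2 CPM, moderated by a small prior count, and how the moderation was done is not given in the sources used here. Of 55774 lines, 287 repeats were dropped. Reads were recovered from the log2 values, 100% of them whole within 0.01 reads, and served the alternative scalings and read numbers.

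The 12364 genes past the filter (log2 CPM over 0 in 4 or more samples) were fitted with limma 3.58.1 (R 4.3.3) on all 12 samples, with an intensity trend and Benjamini-Hochberg adjustment over all genes tested. The fit was tested on simulated data. The count tests planned for raw counts were not needed. Exon positions came from GENCODE M21, promoters from RefSeq, and plots from matplotlib 3.10.9. The members, lists, motifs and tests were chosen with earlier results of these data known, and the NRF1 motif was shortened by 1 letter after a longer form had been counted.

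The genes named were, per comparison, up to 5 called members with the largest rise and 5 with the largest fall that moved the same way in all 4 same-label pairs, a structural panel of 20, and up to 3 called rises and falls of each list. Mrpl20, Mrps22, Mrpl9, Mrpl43, Mrpl53 and Mrpl54 were named after their values were seen. Alternatives were the filter, pseudocount, scaling, voom weights, variance trend, threshold, samples in the fit, the replicate label and leaving out samples. An added one, chosen after seeing the data, counted only members sharing at most 10% of exon bases.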

Additional observations from a re-analysis of the deposited data

Results flagged for a closer look

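Of 102 sets of 4 samples of a named member in 1 group, 7 held a sample whose gap to its nearest neighbour, as a share of the range of the group, was above the 95% limit of Dixon's test. Chance gives about 1 in 20, or 5.1 sets. In unstimulated samples m4 was low for Mrpl16 (share 0.933, 4.34 log2 CPM against 4.75 to 4.78), Mrps2 (0.875, 3.35 against 4.22 to 4.35) and Mrps27 (0.921, 3.94 against 4.69 to 4.75). In YFP+ samples m3 was low for Mrps2 (0.833, 4.33 against 5.62 to 5.87) and Mrpl18 (0.967, 6.45 against 6.51 to 6.51), and f2 was high for Mrpl10 (0.874, 5.45 against 5.17 to 5.21). In YFP- samples m3 was low for Mrpl18 (0.896, 6.49 against 6.69 to 6.71). The 3 low values in unstimulated m4 fall on genes that were called higher in both stimulated groups.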

How the results depend on the processing

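The counts of members higher than in unstimulated samples stayed within 1.5 times under each alternative run, at 30 to 43 for YFP- and 38 to 55 for YFP+. For YFP+ against YFP-, 5 members were higher as deposited, 3 with the replicate block, 2 with only the 8 samples compared, 2 with no filter, 13 with quantile normalization, 37 after centring, 28 under trimmed-mean scaling, 29 using voom weights, 3 with no intensity trend, 1 at an adjusted p under 0.01 and 1 to 3 leaving out a replicate label. The count lower, 1, became 2 with the filter at log2 CPM above 2, 2 without YFP+ m3, 0 over members sharing at most 10% of exon bases and 1 to 2 leaving out a label. For YFP+ against unstimulated the count lower, 5, became 8 with quantile normalization, 3 after centring, 3 under trimmed-mean scaling, 3 using voom weights, 12 with rRNA-like features left out of totals, 3 at an adjusted p under 0.01, 3 over the less shared members and 3 to 4 leaving out a label. For YFP- against unstimulated the count lower, 5, became 2 at an adjusted p under 0.01, 3 over the less shared members and 1 to 4 leaving out a label. The median of members minus that of all genes moved to 0.36 (YFP- against unstimulated) and 0.11 (YFP+ against YFP-) with no filter, and to 0.35 (YFP+ against unstimulated) and 0.19 (YFP+ against YFP-) with quantile normalization. Large minus small subunit moved to -0.15 with subunits by structure in YFP- against unstimulated. Where no construction of the alternative shows it, the cause was not tested.

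The replicate labels were not established as pairs: correlations of same-label deviations averaged 0.24 between YFP+ and YFP-, 0.03 between YFP- and unstimulated samples and 0.14 between YFP+ and unstimulated samples, and a sample correlated best with its own label in 3, 1 and 2 of 4 labels. The replicate block moved no other count of members by over 1.5 times.

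Named members gave 72 results and 1224 alternative values, of which 60 lost and 21 gained the threshold and 32 changed sign, and 45 results held throughout. No member result that changed sign was called, and their main log2 changes were at most 0.11 in size. For YFP- against unstimulated, quantile normalization gave -0.20 for Mrpl10, -0.13 for Mrps12, -0.067 for Mrps30 and -0.13 for Mrps36. Centring gave -0.12, -0.038, -0.13 and -0.024, and leaving rRNA-like features out of totals -0.16, -0.081, -0.17 and -0.068, for the same genes in that order. Trimmed-mean scaling gave -0.090, -0.011 and -0.10 for Mrpl10, Mrps12 and Mrps30, and voom weights -0.090, -0.013 and -0.11. Leaving out a label gave -0.086 to 0.083 for Mrpl10, -0.23 to 0.19 for Mrpl33, -0.072 to 0.054 for Mrpl4 and -0.066 to 0.085 for Mrps30. For YFP+ against unstimulated, Mrpl10 was at 0.099 after centring, 0.055 under trimmed-mean scaling, 0.055 using voom weights and -0.1 to 0.026 leaving out a label. Mrpl58 was at 0.011 after centring, and Mrpl33 at -0.078 with rRNA-like features left out and at -0.090 to 0.31 leaving out a label.

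List genes gave 73 called results and 1233 alternative values, of which 173 lost the threshold. Lars2 changed sign with quantile normalization, to 0.11 in YFP- and 0.23 in YFP+ against unstimulated samples, and 166 of 816 counts over lists moved by over 1.5 times. After their values were seen, panel members not called between YFP+ and YFP- were left without single values there: of their 25 results and 425 alternative values, 41 gained the threshold and 30 changed sign. A member past the filter held at least 194 reads in a library, and the shares of counting error and of the spread between samples were not compared.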
